A study of Homo sapiens with 12 samples.

Results

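The genes described here are 10 members of fatty acid uptake, oxidation and storage pathways, of the kind that peroxisome proliferator-activated receptors (PPARs) are known to control: CPT1A, ANGPTL4, VLDLR, PDK4, PLIN2, PPARD, SLC25A20, ACADVL, DGAT1 and SLC27A4. They were taken by symbol, 10 of the 28512 genes with usable symbols, and the group was chosen by the signal with GSK2801 and with DMSO, since CPT1A, ANGPTL4 and VLDLR stood high in cells given GSK2801. GSK2801 against DMSO is therefore described below with no test for these genes. The study sequenced polyadenylated RNA of SUM159, MDAMB231 and HCC1806, 3 established lines of triple-negative breast cancer, after 72 h in culture. Each line was given JQ1 plus GSK2801, GSK2801 alone at 10 µM, JQ1 alone, or the vehicle DMSO, with 1 library for each line and treatment, so n = 3 lines per treatment and 12 libraries in all. JQ1, alone or in the combination, was used at 300 nM in SUM159, 100 nM in MDAMB231 and 500 nM in HCC1806. The medium was RPMI plus serum for HCC1806 and DMEM/F12 plus serum, hydrocortisone and insulin for SUM159 and MDAMB231, so effects of the line, of its medium and of its JQ1 dose cannot be told apart.

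JQ1 blocks the bromodomains of the BET proteins, readers of acetylated histones, and GSK2801 blocks those of BAZ2A and BAZ2B. PPARs are nuclear receptors that bind fatty acids and pair with RXR on DNA elements made of 2 AGGTCA-type repeats set 1 base apart. PPAR-alpha and PPAR-delta are best known for switching on fatty acid oxidation in liver and muscle, and PPAR-gamma for fat storage in adipocytes. Many tumour cells burn or store fatty acids as well. Several of the genes also answer to other signals: PDK4 to glucocorticoids and FOXO factors, and ANGPTL4, VLDLR and PLIN2 to hypoxia-inducible factors.

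Depth ran between 24200000 and 46800000 estimated reads per library, with 15766 to 16797 genes detected. The deposited signal is an estimated read count, scaled by the authors so that the upper quartile of the values above 0 was 1663.93 in every library. Levels can be compared between libraries for 1 gene, but not between genes, since they are not per length. Markers set the lines apart. HCC1806 held the epithelial genes EPCAM (11491 to 15287) and CDH1 with little VIM (46.9 to 173) and ZEB1 (1.07 to 9.60), though other mesenchymal markers were present in it, FN1 at 6424 to 17551, CDH2 at 705 to 1412, SNAI2 at 724 to 1237 and TWIST1 at 265 to 418. VIM was at 90380.3 or above in each library of SUM159 and MDAMB231, where EPCAM did not exceed 375. Other markers went the other way there. KRT8, an epithelial marker, was at 1075 to 1752 in SUM159 and 2430 to 5271 in MDAMB231, and KRT18 at 4882 to 7329 and 10483 to 16385. In MDAMB231 CDH2 was at 4.65 to 17.3 and TWIST1 at 0. ESR1 and PGR, the hormone receptor genes, were at or below 138 and 12.1 in every library. ERBB2, the HER2 gene, was at 3084 to 4142 in SUM159, 1749 to 2335 in MDAMB231 and 4325 to 6456 in HCC1806. All 10 genes passed the low-value filter (a mean of at least 10 over the 12 libraries) and were among the 14232 genes tested. The smallest number of estimated reads behind any value of the 10 genes was 2, for PLIN2 in SUM159, and outside that gene and line it was 14. In these bulk samples a change in the mix of cells and a change in RNA per cell cannot be told apart.

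**Figure D1:**
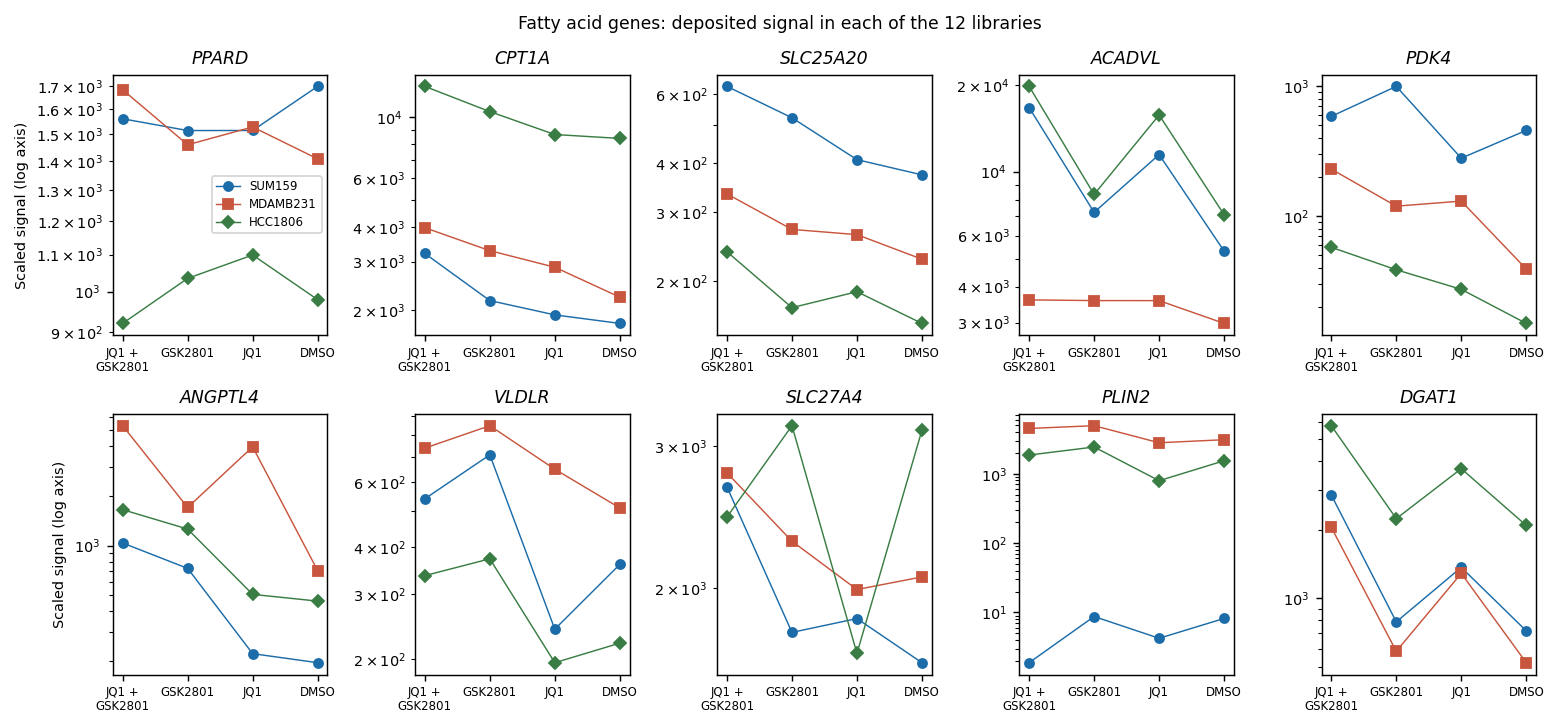
Deposited signal of the 10 fatty acid genes (log axis, scaled differently in each panel) in JQ1 plus GSK2801, GSK2801, JQ1 and DMSO libraries. Each point is 1 library, and lines join the libraries of 1 cell line. ANGPTL4 and CPT1A were highest with the combination in all 3 lines, VLDLR was highest with GSK2801 alone in all 3 lines, and PLIN2 in SUM159 stayed below 10.

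PPARD itself differed little between treatments. The gene, on chromosome 6 (35342558 to 35428191, plus strand, GRCh38), encodes PPAR-delta, the PPAR found in most tissues. Its signal in SUM159 was 1562 with the combination, 1515 with GSK2801, 1515 with JQ1 and 1698 with DMSO. In MDAMB231 it was 1683, 1461, 1529 and 1408 in the same order of treatments, and in HCC1806 it was 921, 1035, 1099 and 979. No treatment was highest in all lines, and the line with the highest level changed with the treatment between SUM159 and MDAMB231. The combination differed from JQ1 by −0.02 ± 0.11 on the log2 scale (SE, n = 3 lines, limma adjusted p = 0.984). PPARA, the receptor best known from liver, was at 1156, 2337 and 1738 with the combination in SUM159, MDAMB231 and HCC1806, at 1139, 752 and 1165 with GSK2801, at 1032, 1629.7 and 2086 with JQ1, and at 935, 757 and 988 with DMSO. It stood 0.78 ± 0.29 above DMSO with JQ1, higher in 3 of 3 lines, and did not pass (limma adjusted p = 0.0810). PPARG, the adipocyte-type receptor, was at 865, 1880.1 and 1146 with the combination in SUM159, MDAMB231 and HCC1806, at 1212.5, 2527 and 1635 with GSK2801, at 617, 2128 and 1036 with JQ1, and at 1299.6, 2637 and 1731 with DMSO. It fell with JQ1 against DMSO by 0.71 ± 0.14 (limma adjusted p = 0.00966), and all 3 lines were lower with JQ1.

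CPT1A, on chromosome 11 (68754620 to 68844410, minus strand), encodes the liver-type carnitine palmitoyltransferase of the outer mitochondrial membrane, which commits long-chain fatty acids to oxidation. Its signal in SUM159 was 3208 with the combination, 2168 with GSK2801, 1924 with JQ1 and 1793 with DMSO. In MDAMB231 the values were 3975, 3284.5, 2861 and 2230.5 in that order, and in HCC1806 they were 12891, 10449.8, 8635 and 8359.8. HCC1806 lay above the other lines under every treatment, and in each line the order was combination, GSK2801, JQ1, DMSO. GSK2801 against DMSO gave a mean log2 ratio of 0.38 ± 0.15 (SD, n = 3 lines), the contrast by which the gene was chosen. The combination against JQ1, whose mean shares no library with that contrast, gave 0.60 ± 0.09 (SE), or 1.51-fold, with 0.74, 0.47 and 0.58 in SUM159, MDAMB231 and HCC1806 (limma adjusted p = 0.302).

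SLC25A20 encodes the carnitine-acylcarnitine translocase, which carries the product of CPT1A across the inner mitochondrial membrane. The gene lies on chromosome 3 (48856931 to 48898993, minus strand). Its signal with the combination, GSK2801, JQ1 and DMSO was 629, 523, 409 and 374 in SUM159, 334, 271, 263 and 228 in MDAMB231, and 238, 171, 188 and 156 in HCC1806. The combination library was the highest and the DMSO library the lowest of every line, and SUM159 was the highest line under every treatment. The combination stood 0.43 ± 0.14 above JQ1 on the log2 scale (0.62, 0.34 and 0.34 in the lines as above, limma adjusted p = 0.569), and the mean log2 ratio of GSK2801 to DMSO was 0.29 ± 0.18 (SD).

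ACADVL encodes very long-chain acyl-CoA dehydrogenase, which opens the first cycle of mitochondrial beta-oxidation. It lies on chromosome 17 (7217125 to 7225273, plus strand) and shares 85 exonic bases with DLG4 on the other strand, so reads there cannot be told apart unless strand was used. In SUM159 its signal was 16680 with the combination, 7227 with GSK2801, 11459.5 with JQ1 and 5306 with DMSO. In HCC1806 it was 19747.5, 8337, 15717 and 7095. MDAMB231 held a narrow range of 3595, 3575, 3574 and 2980.3 in the same order. JQ1 gave the larger differences in SUM159 and HCC1806, with log2 ratios to DMSO of 1.11 and 1.15, against 0.26 in MDAMB231. The mean log2 ratio of GSK2801 to DMSO was 0.31 ± 0.12 (SD), and that of the combination to JQ1 was 0.29 ± 0.25 (SE, limma adjusted p = 0.884).

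PDK4 is the switch between fuels: its product, a pyruvate dehydrogenase kinase, shuts glucose carbon out of the citric acid cycle when fatty acids are burned. It lies on chromosome 7 (95583499 to 95596491, minus strand). Its signal in SUM159 was 586 with the combination, 996 with GSK2801, 279 with JQ1 and 457 with DMSO. In MDAMB231 the 4 values were 230.1, 119, 131 and 39.2, and in HCC1806 they were 57.6, 38.7, 27.3 and 15.0. SUM159 was the highest line and HCC1806 the lowest under every treatment, and the DMSO library of HCC1806 rested on 14 estimated reads. GSK2801 stood above DMSO in each line, by 1.12, 1.58 and 1.31 on the log2 scale in SUM159, MDAMB231 and HCC1806, a mean of 1.34 ± 0.23 (SD). On top of JQ1 the differences were of like size in all lines, at 1.07, 0.81 and 1.05 (mean 0.98 ± 0.44, SE, limma adjusted p = 0.694). JQ1 against DMSO went in opposite directions, with −0.71 in SUM159, 1.71 in MDAMB231 and 0.83 in HCC1806.

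Among the genes of uptake, ANGPTL4 differed most. It encodes a secreted inhibitor of lipoprotein lipase and is a standard readout of PPAR ligands, and it lies on chromosome 19 (8363289 to 8374373, plus strand). Its signal in SUM159 was 1036.5 with the combination and 728 with GSK2801, against 222 with JQ1 and 196 with DMSO. In HCC1806 it was 1649 and 1258.5 with GSK2801 present, against 507 and 461 without it. In MDAMB231 it was 5311 with the combination, 1700.1 with GSK2801, 3957 with JQ1 and 706 with DMSO. Both GSK2801 libraries thus lay above both libraries without it in SUM159 and HCC1806, whereas in MDAMB231 JQ1 alone exceeded GSK2801 alone. GSK2801 over DMSO averaged 1.53 ± 0.32 (SD, log2), in the contrast by which it was chosen. The combination over JQ1 gave 1.45 ± 0.48 (SE), or 2.73-fold, with 2.22 in SUM159, 1.70 in HCC1806 and 0.42 in MDAMB231 (limma adjusted p = 0.574).

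VLDLR, on chromosome 9 (2621834 to 2660053, plus strand), encodes a receptor that takes up triglyceride-rich lipoproteins. It shares 738 exonic bases with the antisense gene VLDLR-AS1, and reads of the pair cannot be told apart unless strand was used. Its signal with the combination, GSK2801, JQ1 and DMSO was 540.4, 709, 241 and 359.9 in SUM159, 739.6, 849.8, 649 and 511 in MDAMB231, and 336, 373, 196 and 221 in HCC1806. The GSK2801 library was the highest of each line and the combination the next, and the lowest was JQ1 in SUM159 and HCC1806 but DMSO in MDAMB231. The log2 ratio of GSK2801 to DMSO was 0.98, 0.73 and 0.75 in SUM159, MDAMB231 and HCC1806 (mean 0.82 ± 0.14, SD). That of the combination to JQ1 was 1.16, 0.19 and 0.77 (mean 0.71 ± 0.21, SE, limma adjusted p = 0.531).

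SLC27A4 encodes FATP4, a fatty acid transport protein that also activates long-chain fatty acids to acyl-CoA. It lies on chromosome 9 (128340646 to 128361470, plus strand). In SUM159 its signal was 2668 with the combination, 1762 with GSK2801, 1833 with JQ1 and 1616 with DMSO, and in MDAMB231 it was 2778, 2285, 1991 and 2064. In HCC1806 it was 2449, 3178, 1659 and 3137, so both JQ1 libraries of that line lay below both libraries without JQ1. GSK2801 alone made little difference from DMSO (0.12, 0.15 and 0.02 in SUM159, MDAMB231 and HCC1806). On top of JQ1 it stood higher by nearly the same amount in each line, 0.54, 0.48 and 0.56, a mean of 0.53 ± 0.22 (SE, limma adjusted p = 0.661).

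Of the storage genes, PLIN2 encodes the coat protein of lipid droplets, and its RNA follows the cell's fat content in many cell types. It lies on chromosome 9 (19108375 to 19149290, minus strand). In MDAMB231 its signal was 4488 with the combination, 4922 with GSK2801, 2793 with JQ1 and 3089 with DMSO, and in HCC1806 it was 1857, 2426, 793 and 1537. SUM159 held almost none, with 1.89, 8.75, 4.25 and 8.20, on 2 to 10 estimated reads, so its ratios there say little. In the other lines both libraries with GSK2801 lay above both without it. The log2 ratio of the combination to JQ1 was 0.68 in MDAMB231 and 1.23 in HCC1806, against −0.86 in SUM159, and the mean of 0.35 ± 0.40 did not pass (limma adjusted p = 0.919).

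DGAT1 encodes an acyltransferase that makes triglyceride, and it lies on chromosome 8 (144314584 to 144326910, minus strand), sharing 139 exonic bases with HSF1 on the other strand. Its signal with the combination, GSK2801, JQ1 and DMSO was 2848, 787, 1367 and 718 in SUM159, 2051, 584, 1286 and 519.9 in MDAMB231, and 5751, 2241, 3718 and 2091 in HCC1806. In each line the libraries ranked combination, JQ1, GSK2801, DMSO, with no overlap between libraries with and without JQ1. GSK2801 alone was close to DMSO (mean log2 ratio 0.13 ± 0.03, SD), and on top of JQ1 it gave 0.79 ± 0.13 (SE), with 1.06, 0.67 and 0.63 in SUM159, MDAMB231 and HCC1806 (limma adjusted p = 0.325).

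**Figure D2:**
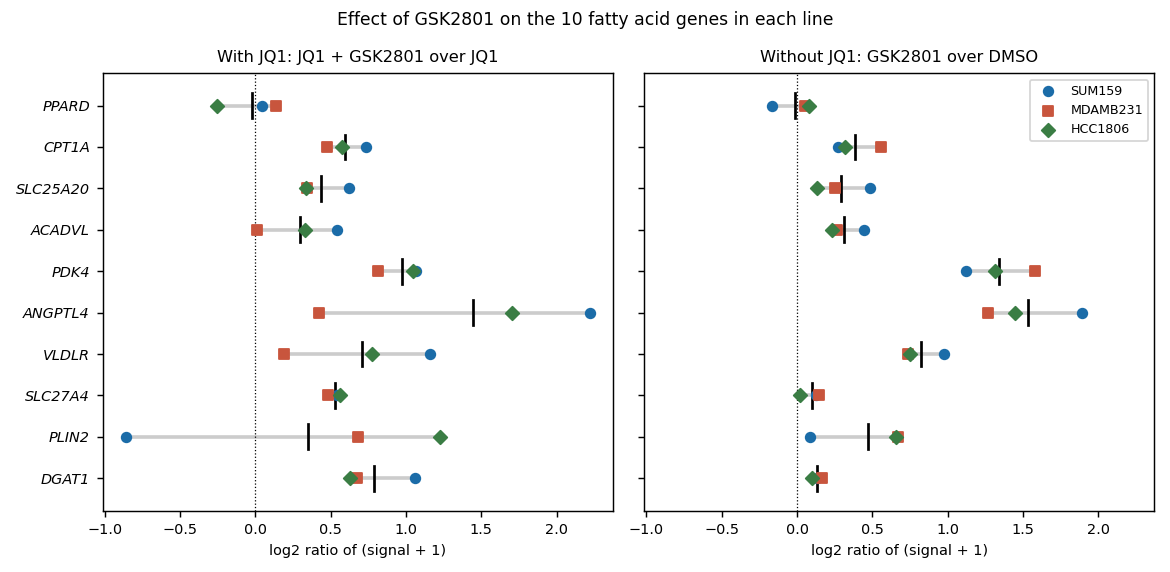
Log2 ratios of (signal + 1) for GSK2801, with JQ1 (left: combination over JQ1) and without it (right: GSK2801 over DMSO). Points are the 3 lines, grey bars their range and black ticks their mean. With JQ1, 8 of the 10 genes lay above 0 in every line, ACADVL in MDAMB231 by only 0.01. ANGPTL4 lay at 0.42 to 2.22, and PPARD lay close to 0.

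The combination against JQ1 asked what GSK2801 did in cells already under BET inhibition, and its mean shares no library with GSK2801 against DMSO. Its p-values in both models below do draw on those libraries, since the error was estimated from all 12. The genes were also chosen with results of all libraries known. The counts and p-values below are therefore not independent of that choice. The genes had a median log2 ratio of 0.56, beside 0.00 for all 14232 genes. CPT1A, ANGPTL4, VLDLR, PDK4, SLC25A20, ACADVL, DGAT1 and SLC27A4 were higher in each of the 3 lines, 8 of 10, beside 21.7% of all tested genes. ACADVL in MDAMB231 was higher by only 0.01. None of the 10 genes was lower in each line, beside 20% of all genes. No gene of the 10 passed limma's test in the model with line and treatment, and 0% of all genes did in either direction, with 1031 of the 14232 genes at an unadjusted p below 0.05. That model counts differences between the lines in their JQ1 response as error. In a model with a separate JQ1 term per line, 6 of the 10 genes were higher and none lower, beside 2.89% of all genes higher and 3.23% lower. They were SLC27A4 (adjusted p = 0.0111), DGAT1 (0.0126), CPT1A (0.0143), PDK4 (0.0201), ANGPTL4 (0.0316) and VLDLR (0.0483), each with the limma mean given above. SLC25A20 (0.0682), ACADVL (0.104), PLIN2 (0.555) and PPARD (0.891) did not pass in it.

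Without JQ1, GSK2801 stood above DMSO in every line for 9 of the 10 genes, all but PPARD, and none was lower in every line, beside 19.7% and 17.6% of all tested genes, a count that the choice of the genes shaped. Their median log2 ratio was 0.35, beside 0.01 over all genes. PLIN2 in SUM159 was higher by only 0.08, on 10 estimated reads with GSK2801 and 7 with DMSO. In the model with line and treatment no gene of the whole table passed between GSK2801 and DMSO, 0% in either direction, with 161 genes at an unadjusted p below 0.05, and in the model with a JQ1 term per line none passed either. The difference made by GSK2801 with and without JQ1 varied by line for ANGPTL4, at 2.22 and 1.89 in SUM159, 1.70 and 1.45 in HCC1806, and 0.42 and 1.27 in MDAMB231. Its means were 1.45 and 1.53. The mean was 0.98 with JQ1 and 1.34 without it for PDK4, 0.79 and 0.13 for DGAT1, and 0.53 and 0.10 for SLC27A4. The departure from additivity, the first value less the second, was above 0 in every line for DGAT1 (0.93, 0.51 and 0.53 in SUM159, MDAMB231 and HCC1806), SLC27A4 (0.42, 0.33 and 0.54) and SLC25A20 (0.14, 0.09 and 0.20). PDK4 was the only gene of the 10 below 0 in every line (−0.06, −0.77 and −0.27). Over all genes 15.5% were above 0 in each line and 17.2% below. These departures include the libraries by which the genes were chosen and were not tested.

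**Figure D3:**
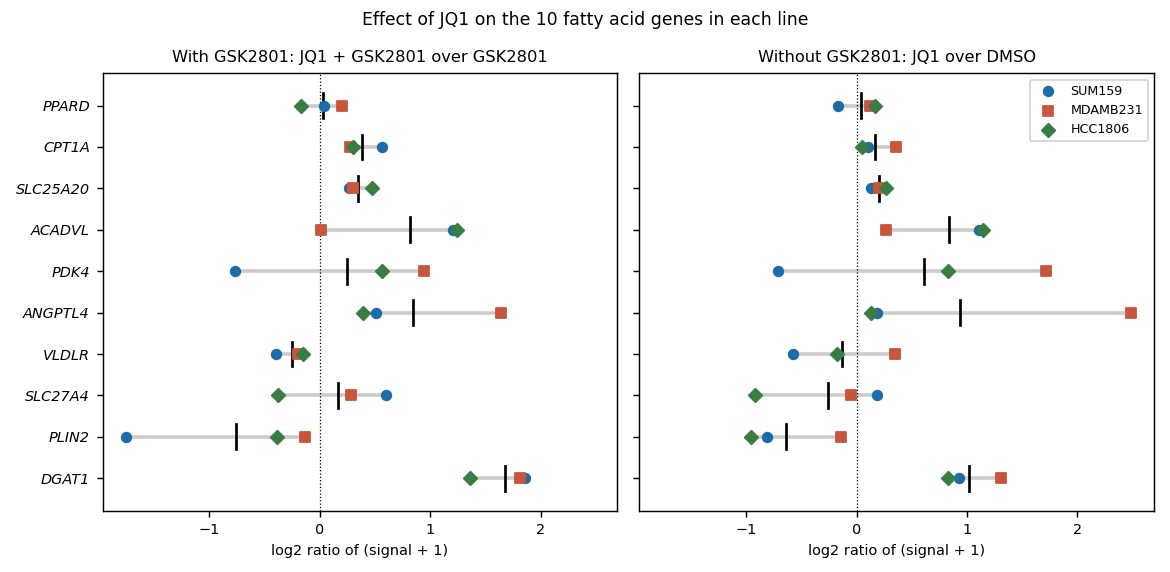
Log2 ratios of (signal + 1) for JQ1, with GSK2801 (left: combination over GSK2801) and without it (right: JQ1 over DMSO). Points are the 3 lines, grey bars their range and black ticks their mean. DGAT1 lay at 0.83 or above in every line on both sides, while PDK4 and SLC27A4 fell on both sides of 0 depending on the line.

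DGAT1 and ACADVL rose with JQ1 both with and without GSK2801. The DMSO and GSK2801 libraries of these contrasts also served in choosing the genes, so the calls are not independent of that choice, and genes chosen for a low value with DMSO would tend to stand higher in any comparison with it. Against DMSO, 2 of the 10 passed and both rose, beside 9.52% of all tested genes that rose and 13.1% that fell. DGAT1 rose 2.03-fold (log2 1.02 ± 0.13, higher in 3 of 3 lines, limma adjusted p = 0.00207), and ACADVL rose 1.79-fold (0.84 ± 0.25, 3 of 3 lines, limma adjusted p = 0.0433). With GSK2801 present in both groups, 3 of the 10 rose with JQ1 and none fell, beside 11.8% and 17.2% of all genes. DGAT1 rose 3.19-fold (1.68 ± 0.13, limma adjusted p = 2.95e-04), ACADVL 1.76-fold (0.82 ± 0.25, 0.0394) and CPT1A 1.30-fold (0.38 ± 0.09, 0.0162), each in 3 of 3 lines. In MDAMB231, however, ACADVL was level, with a log2 ratio of 0.01. The ACADVL calls were lost without the 4 libraries of SUM159 (log2 0.70 against DMSO and 0.63 against GSK2801) or those of HCC1806 (0.69 and 0.61). They were also lost without any of 7 and 8 of the 12 single libraries (limma adjusted p = 0.0526 to 0.157 and 0.0501 to 0.149), and with no low-value filter (0.0557 and 0.0503). The CPT1A call was lost without SUM159 (0.29, limma adjusted p = 0.139) or HCC1806 (0.42, 0.0791), and without the GSK2801 library of either line or the combination library of SUM159 (0.31 to 0.39, limma adjusted p = 0.0533 to 0.0688).

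The remaining genes did not pass in either JQ1 contrast. ANGPTL4 stood 0.93 ± 0.48 above DMSO with JQ1, and that mean came from MDAMB231 (2.48, against 0.18 in SUM159 and 0.14 in HCC1806). Without MDAMB231 it was 0.16. VLDLR was lower with the combination than with GSK2801 in each line (−0.39, −0.20 and −0.15 in SUM159, MDAMB231 and HCC1806). PLIN2 was lower with JQ1 in each line on both backgrounds, at −0.76 ± 0.40 against GSK2801 and −0.64 ± 0.40 against DMSO. The values against GSK2801 were −1.75, −0.13 and −0.38 in SUM159, MDAMB231 and HCC1806. Against DMSO they were −0.81, −0.15 and −0.95. Those of SUM159 rest on 2 to 10 estimated reads per library and say little, though they enter both means and the counts by line. Counting by line, 5 of the 10 genes were higher in every line against GSK2801 and 2 lower, beside 21.2% and 29.5% of all genes. Against DMSO 5 were higher and 1 lower, beside 21.7% and 28.8%. Markers of other cell types stood lower with JQ1 in SUM159. Their summed signal with the combination, GSK2801, JQ1 and DMSO was 10919, 45548, 20478 and 53079 for 8 fibroblast and endothelial markers, mostly COL1A1. It was 195, 2862, 294 and 4059 for 6 hepatocyte markers, nearly all SERPINA1, and 65.2, 199, 36.1 and 517 for 6 blood and macrophage markers, with PTPRC up to 422. The defining genes ALB and CD3E did not exceed 1.17 in that line. In the other lines these sums did not exceed 450, 26.8 and 32.0. Their part in the results was not tested.

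Putting the 4 treatments together, the combination library was the highest of its line in all 3 lines for CPT1A, ANGPTL4, SLC25A20, ACADVL and DGAT1, 5 of the 10 genes, beside 10.2% of all tested genes. ACADVL in MDAMB231 was barely so, at 3595 with the combination, 3575 with GSK2801 and 3574 with JQ1. Against DMSO the combination gave mean log2 ratios of 2.38 ± 0.54 for ANGPTL4, 1.81 ± 0.30 for DGAT1, 1.59 ± 1.11 for PDK4, 1.13 ± 0.75 for ACADVL and 0.77 ± 0.12 for CPT1A (SD, n = 3 lines). ANGPTL4 was 5.21-fold and DGAT1 3.50-fold higher than with DMSO, and VLDLR 1.49-fold. PLIN2 (−0.29), SLC27A4 (0.26) and PPARD (0.02) differed in direction between the lines. For PLIN2 the value below 0 was that of SUM159 (−1.67), on few reads, against 0.54 in MDAMB231 and 0.27 in HCC1806. In all, 7 of the 10 genes were higher in every line and none lower, beside 22.5% and 30% of all genes. These values, too, rest in part on the libraries used for the choice and carry no test.

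The promoters of the genes were searched because ANGPTL4, VLDLR and their fellows stood high together. RefSeq windows (GRCh38.p14) of 250 bases before to 50 after a start site were available for 9 of the 10 genes, in 10 windows. The direct repeat that PPAR and RXR bind, AGGTCA followed by any 1 base and by AGGTCA again, was searched on both strands. With up to 2 mismatches in its 12 fixed bases it was in none of the 9 genes' windows, beside 2.97% of 35114 windows of the same length. With up to 3 mismatches it was in 2 of the 10 windows, those of SLC25A20 and ACADVL, beside 20.9%. A single exact AGGTCA was in none, beside 13.8%. The core letters that hypoxia-inducible factors bind, ACGTG or GCGTG on either strand, were in 8 of the 10 windows, beside 48.4% of all windows. The 10 windows were 50% to 79% G or C, beside a median of 58.7% over all windows, and the shares were not matched on it. These are matches of letters and not sites, and PPAR elements known for ANGPTL4 and CPT1A lie in introns, outside such windows. The 250 bases before the start are shown for ANGPTL4 and VLDLR, the uptake genes that stood highest with GSK2801, with each ACGTG or GCGTG match on either strand in capitals. Matches that overlap run together.
ANGPTL4 (chr19:8363905-8364154, plus strand, 1 match): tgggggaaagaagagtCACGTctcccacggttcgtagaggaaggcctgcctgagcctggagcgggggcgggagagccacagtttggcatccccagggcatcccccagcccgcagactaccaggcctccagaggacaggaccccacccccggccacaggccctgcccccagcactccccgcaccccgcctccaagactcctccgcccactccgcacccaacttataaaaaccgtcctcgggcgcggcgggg
VLDLR (chr9:2621537-2621786, plus strand, 5 matches): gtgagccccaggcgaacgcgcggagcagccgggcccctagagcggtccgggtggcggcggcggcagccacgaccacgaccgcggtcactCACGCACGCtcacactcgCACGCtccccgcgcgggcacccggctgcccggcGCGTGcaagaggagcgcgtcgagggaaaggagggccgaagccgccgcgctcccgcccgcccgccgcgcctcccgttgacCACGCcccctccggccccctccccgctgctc

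The other genes of the same pathways were counted from 6 lists that leave out the 10 genes, 133 tested of 149 listed. With the combination against JQ1 none of the 133 passed in the model with line and treatment, and their median log2 ratio was 0.10, beside 0.56 for the 10 genes and 0.00 for all genes. Fatty acid oxidation genes had a median of 0.18, and 20 of 40 were higher in every line and 5 lower, beside 21.7% and 20% of all genes. The genes of smallest p there were ETFA (0.39 ± 0.08, limma adjusted p = 0.380) and ETFDH (0.54 ± 0.13, limma adjusted p = 0.426), which pass electrons from acyl-CoA dehydrogenases to the respiratory chain. Genes of uptake, binding and activation had a median of 0.15, those of triglyceride synthesis, lipid droplets and lipolysis 0.17, and other known PPAR targets 0.20. PPAR and RXR receptors and cofactors (0.02) and pyruvate dehydrogenase with its kinases (0.03) lay near the median of all genes.

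In the model with a JQ1 term per line, 12 of the 133 rose with the combination against JQ1 and 2 fell, beside the same 2.89% and 3.23% of all genes. In the oxidation list 4 of 40 rose, among them ETFDH, ETFA and CAT (0.38), which encodes catalase, the enzyme that breaks down hydrogen peroxide in peroxisomes. In the storage list 4 of 25 rose: BSCL2 (0.86), the seipin gene of lipid droplet assembly, PNPLA2 (0.46), the main triglyceride lipase, and the synthesis genes LPIN2 (0.30) and GPAT4 (0.30). The uptake list gave FABP4 (2.10), a fatty acid carrier, and ACSL1 (0.38), an acyl-CoA synthetase, 2 of 21. With JQ1 and the combination, FABP4 was at 0 and 0.67 in MDAMB231 and at 0 and 5.33 in HCC1806. Its ratios in those lines say little, and its signal lay in SUM159 (203 and 1509.9). The other PPAR targets gave CYP1A1 (1.98), best known as a target of the aryl hydrocarbon receptor, and RETSAT (0.67), a retinol saturase, 2 of 19. The falls were in the cofactor list, NRIP1 (−0.42) and TBL1XR1 (−0.32), 2 of 16. With GSK2801 against DMSO, a contrast that shares the libraries of the choice, none of the 133 passed in either model. Their median was 0.10, and 23 of 40 oxidation genes were higher in every line and 1 lower, beside 19.7% and 17.6% of all genes, with CAT (0.32 ± 0.10) the gene of smallest p among them (limma adjusted p = 1.00).

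**Figure D4:**
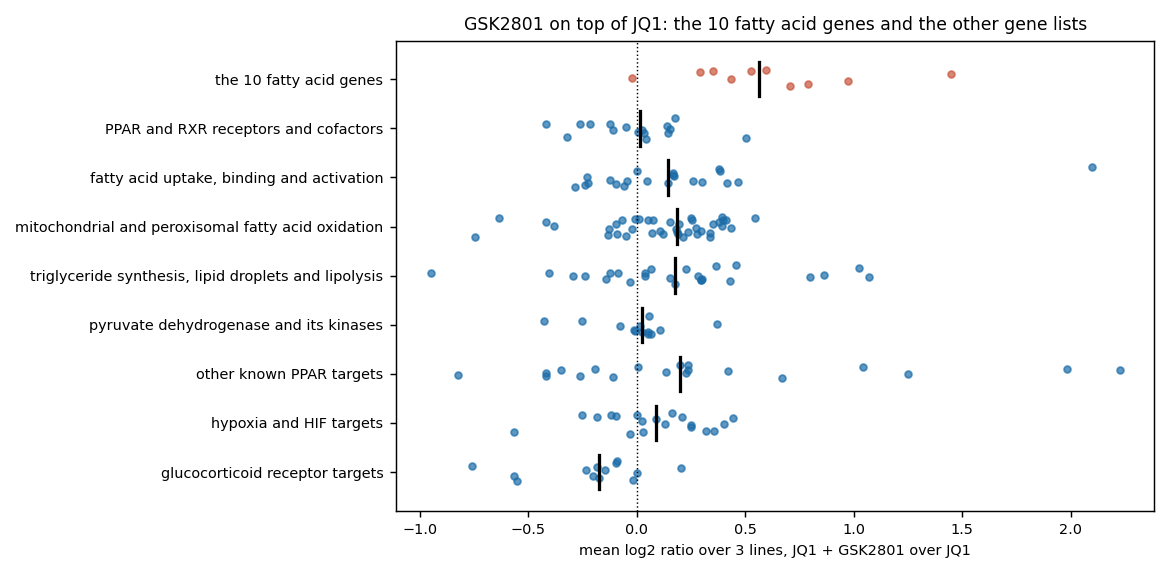
Mean log2 ratio of (signal + 1) over the 3 lines, combination over JQ1, for the 10 fatty acid genes and 8 other gene lists. Each point is 1 gene and each black tick a list's median. The 10 genes have a median of 0.56, and the medians of the other lists run between −0.17 for glucocorticoid receptor targets and 0.20 for other known PPAR targets.

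Some pathway genes rose with JQ1 and others fell. Against DMSO 22 of 133 rose and 16 fell, beside 9.52% and 13.1% of all genes, and against GSK2801, in the combination, 20 rose and 19 fell, beside 11.8% and 17.2%. Against DMSO these became 13 and 6 without SUM159, 9 and 10 without MDAMB231, and 4 and 0 without HCC1806, and 9 to 24 and 8 to 16 without a single library. Against GSK2801 they became 19 and 8, 15 and 16, and 13 and 7 without the same lines, and 15 to 24 and 12 to 18 without a single library. Among oxidation genes 10 of 40 rose with JQ1 against DMSO and 2 fell, with ACAD10 (1.47 ± 0.35) and DECR2 (1.46 ± 0.15) the largest rises. DECR1, the mitochondrial counterpart of the peroxisomal DECR2, fell by 0.65 ± 0.13 on the log2 scale. In the storage list 5 of 25 rose, led by PNPLA2 (1.65 ± 0.14) and BSCL2 (1.51 ± 0.27), and GPAT3 fell by 1.03 ± 0.27. In the uptake list 1 rose and 5 of 21 fell, led by the acyl-CoA synthetase gene ACSL5 (−3.49 ± 0.76). The cofactor PPARGC1B fell by 1.25 ± 0.18, and the glucose-responsive gene TXNIP rose by 2.53 ± 0.39 (limma, adjusted p below the threshold of 0.05 for each gene named).

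Lists of the other signals were set beside the genes. The 19 hypoxia genes had a median log2 ratio of 0.09 with the combination against JQ1 and of 0.17 with GSK2801 against DMSO, with none past the threshold in the model with line and treatment. With GSK2801 against DMSO 11 of the 19 were higher in every line and 0 lower, beside 19.7% and 17.6% of all genes. That share was like the 23 of 40 and 1 of 40 of the oxidation genes. With the combination against JQ1 4 were higher in every line and 1 lower, beside 21.7% and 20%. In the model with a JQ1 term per line NDRG1 (0.44), KDM3A (0.40) and P4HA1 (0.32) rose with the combination against JQ1, 3 of 19, beside 2.89% of all genes. With JQ1 against DMSO 6 of the 19 rose and 2 fell, beside 9.52% and 13.1% of all genes. The rises were led by NDRG1 (1.42 ± 0.34), BNIP3L (0.90 ± 0.22) and ANKRD37 (0.82 ± 0.25). The falls were the carbonic anhydrase gene CA9 (−3.17 ± 0.74) and VEGFA (−1.21 ± 0.15). CA9 was near 0 in MDAMB231, at 0 with JQ1 and 2.26 with DMSO. The 13 glucocorticoid receptor targets had a median of −0.17 with the combination against JQ1 and 0.02 with GSK2801 against DMSO. The part of these signals in the levels of the 10 genes was not tested.

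Adipocyte-type genes were also present in SUM159. FABP4 in SUM159 was at 1509.9 with the combination and 982 with GSK2801, against 203 with JQ1 and 177 with DMSO. CD36, a fatty acid receptor, was at 16.1 with the combination, 1089 with GSK2801, 9.56 with JQ1 and 252 with DMSO. PLIN1, the droplet coat protein of adipocytes, was at 44.4, 382, 8.50 and 42.2 in the same order. So FABP4 was high in both GSK2801 libraries, whereas CD36 and PLIN1 were high with GSK2801 alone. The lipoprotein lipase gene LPL was at 519, 861, 291 and 468, and CIDEC, which fuses lipid droplets, was at 60.5, 794, 51.0 and 649. In the other lines FABP4 did not exceed 29.3, CD36 6.0, PLIN1 13.7 or CIDEC 3.33. Summed over 7 adipocyte markers, SUM159 held 2237 with the combination, 3136 with GSK2801, 630 with JQ1 and 1409.8 with DMSO, the other lines 28.5 to 122. The defining adipocyte genes ADIPOQ (at most 1.17) and LEP (0 in every library) were at or near 0. The part of these genes' expression in the values of the 10 genes was not tested.

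**Figure D5:**
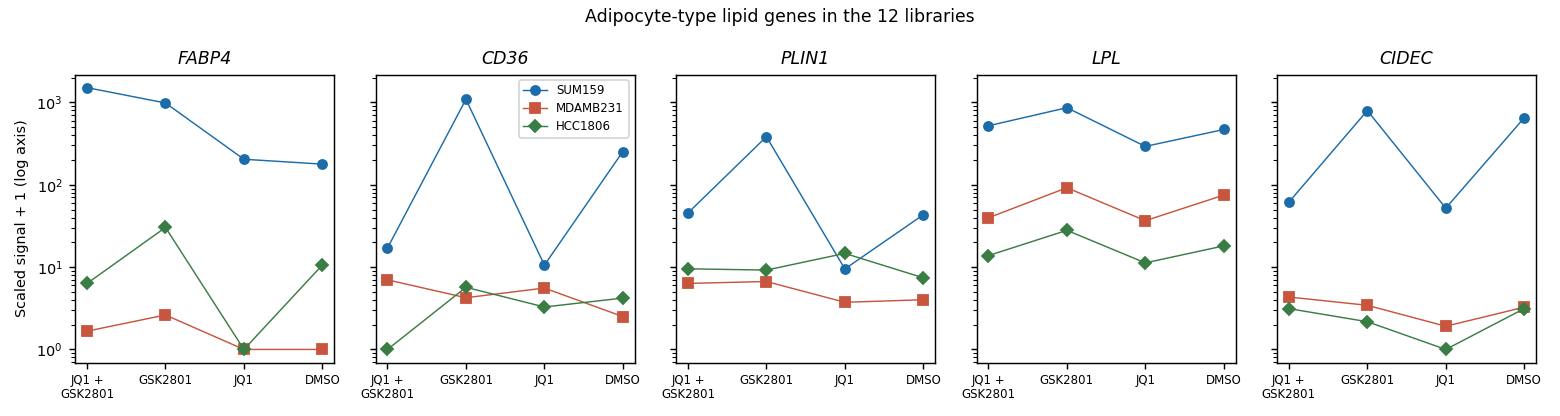
Signal + 1 (log axis) of FABP4, CD36, PLIN1, LPL and CIDEC in JQ1 plus GSK2801, GSK2801, JQ1 and DMSO libraries. Each point is 1 library, and lines join the libraries of 1 cell line. SUM159 lies above the other lines under each treatment, except for PLIN1 with JQ1, with FABP4 at 1509.9 and 982 in its libraries with GSK2801 and 203 and 177 without it.

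Genes whose 9 log2 ratios to DMSO (3 lines, 3 treatments) lay nearest to those of the 3 leading genes were looked up among 12396 genes with a mean of at least 50. The distance was the root mean square difference as a share of the gene's own root mean square ratio. The ratios include GSK2801 over DMSO, the contrast by which the group was chosen, and each is taken over its line's DMSO library. The distances are therefore not independent of that choice, and they were not tested. Nearest to CPT1A were LPCAT1 (0.332), TMEM120B (0.368) and SLC25A20 (0.371). SLC25A20, the neighbour of CPT1A in the carnitine shuttle, was itself among the genes chosen for the group. Nearest to ANGPTL4 were CYP1A1 (0.319), SLC29A4 (0.379) and PTGES (0.394). CYP1A1 stood 2.45, 1.26 and 2.25 higher with the combination than with JQ1 in SUM159, MDAMB231 and HCC1806. VLDLR had no close match, with STON2 (0.550), ABHD6 (0.591) and ST3GAL1 (0.606) the nearest.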

How the data were processed

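Polyadenylated RNA was sequenced from SUM159, MDAMB231 and HCC1806 under 4 treatments. The labels name both a KAPA stranded and an Illumina TruSeq kit, so the kit and the use of strand are not settled. Per the submitters' processing notes, STAR 2.4, Salmon 0.60 and the hg38 build were used; the annotation and scaling step are not given in the sources used here. The deposited values were taken as signal, estimated read counts scaled by the authors to 1 upper quartile, as 73.8% to 76.4% of low values were whole multiples of 1 step (tolerance 0.02). That is not nearly all, so no count model was used, although planned for unscaled counts.

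Of 28539 entries, 27 with symbols turned into dates (0.168% to 0.218% of the signal) were left out. Log2(value + 1) of 14232 genes was fitted with limma 3.58.1 (R 4.3.3, variance trend), with line as block and treatment as factor (6 residual and 3.02 prior degrees of freedom), Benjamini-Hochberg adjustment over all tested genes and a threshold of 0.05. A replicate number stands for a cell line in the labels, so same-numbered libraries are paired, and libraries correlated at 0.935 to 0.993 within a line and 0.685 to 0.810 between lines. The p-values measure the spread between 3 lines, not between cultures. As libraries with JQ1 share their line's JQ1 response, p-values for JQ1 contrasts may be too small. An alternative with a JQ1 term per line (4 residual and 4.04 prior degrees of freedom) was read only between libraries of the same JQ1 status. For JQ1 contrasts its p-values leave out the spread of the JQ1 response between lines, so its counts there are given among the alternatives alone. Other alternatives were scaling, pseudocount, filter, variance trend, block, only the 6 libraries compared, and leaving out lines and libraries. The model with line and treatment was run on simulated data in which the JQ1 effect was equal in every line. The model with a JQ1 term per line was not run on simulated data.

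The 10 genes and all lists were chosen with earlier results of these data known. Named from a list are at most the 3 largest rises and the 3 largest falls that passed, or the 2 of smallest p; the genes given for the alternative model are those that passed in it, chosen after their values were seen, as were those named in SUM159. EP300, BNIP3 and PLIN4 were not analysed here, and some list genes that passed are not reported here.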

Additional observations from a re-analysis of the deposited data

Results flagged for a closer look

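PDK4 answered to JQ1 in opposite directions in different lines. Its log2 ratios for JQ1 were 0.94 with GSK2801 and 1.71 without it in MDAMB231 (mean 1.33), against −0.77 and −0.71 in SUM159 (mean −0.74), a difference of 2.06. In HCC1806 they were 0.56 and 0.83 (mean 0.70), which differs from SUM159 by 1.43. SLC27A4 was higher with JQ1 in SUM159 (0.60 with GSK2801 and 0.18 without it, mean 0.39) and lower in HCC1806 (−0.38 and −0.92, mean −0.65), a difference of 1.04. These differences between lines were not tested, with 1 library for each line and treatment. The lines also differ in JQ1 dose, and HCC1806 in medium, which cannot be told apart from the line.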

How the results depend on the processing

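Of 750 values of single genes under the alternatives, 685 kept direction and call, 14 gained and 37 lost a call, and 14 changed sign, each when a line or library was left out and none of them a called value. Over the fits that left out a line or library, PPARD ranged between −0.12 and 0.091 (combination against JQ1), −0.070 and 0.12 (combination against GSK2801) and −0.025 and 0.14 (JQ1 against DMSO). SLC27A4 ranged between −0.047 and 0.44 (combination against GSK2801) and −0.49 and 0.065 (JQ1 against DMSO). VLDLR ranged between −0.40 and 0.11 (JQ1 against DMSO), PDK4 between −0.10 and 0.75 (combination against GSK2801) and PLIN2 between −0.088 and 0.96 (combination against JQ1). The cause was not tested.

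Of the 10 genes, those that rose with JQ1 against DMSO (2) numbered 1 with no low-value filter, no variance trend or only the 6 libraries compared, 0 with no replicate block, and 4, with 1 fall, with a JQ1 term per line. Against GSK2801 the ACADVL call was lost with no low-value filter. The 3 that rose against GSK2801 numbered 1 with only 6 libraries, 0 with no block and 6 with a JQ1 term per line. Against JQ1 the 0 that rose numbered 6 with it. For JQ1 contrasts that model's p-values leave out the spread between lines. Of all 14232 genes it called 7479 against DMSO, 8216 against GSK2801 and 871 against JQ1, rises and falls together. Leaving out lines or libraries gave 1 to 2, 1 to 3 and 0. Of the 133 pathway genes, 22 rises and 16 falls against DMSO became 0 and 0 with no block, 42 and 30 with a JQ1 term per line, 7 and 5 with 6 libraries, and 4 to 24 and 0 to 16 without a line or library. Against GSK2801, 20 and 19 became 0 and 0, 48 and 40, 3 and 1, and 13 to 24 and 7 to 18. Against JQ1, 0 and 0 became 12 and 2 with a JQ1 term per line. The DGAT1 calls were lost only with no block (adjusted p up to 1.00 against DMSO and 0.521 against GSK2801). Other scalings moved the median of all genes by at most 0.0852. Values under about 10 rest on few reads, as for PLIN2 in SUM159.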

Other observations

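PLIN2 was near 0 in SUM159 (1.89 to 8.75), and its neighbours within 1000 kb on chromosome 9 were looked up after that was seen. In SUM159 HAUS6 was at 2968 to 4357, DENND4C at 1472 to 1760.3, RRAGA at 513 to 719 and RPS6 at 38764 to 41308. In MDAMB231 these 4 genes were at 1719 to 2665, 888 to 1783, 1686 to 3243 and 19349 to 27129. ADAMTSL1 was at 1.89 to 14.1 in SUM159, against 142 to 318 in MDAMB231 and at most 1.14 in HCC1806. ACER2 was at 11.7 to 50.1 in SUM159, against 39.2 to 104 in MDAMB231 and 101 to 465 in HCC1806. SAXO1 and SLC24A2 did not exceed 4.27 in any line. The reason for the low PLIN2 signal was not tested.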
